A study of Saccharomyces cerevisiae with 30 samples.

Results

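The messenger RNAs that copurify with the signal recognition particle (SRP) of budding yeast were compared between a lysate incubated with cycloheximide (CHX) and one incubated with puromycin. For each open reading frame (ORF), the ratio of counts in SRP72-bound RNA to counts in soluble RNA was taken in each lysate on the log2 scale. Each ratio was set to 0 at the median of the ORFs that the authors class as cytonuclear, and the change is the puromycin ratio minus the CHX ratio. A negative change means that a message stood less far above cytonuclear messages after puromycin. ORFs with 50 or more counts in each of the 4 libraries were kept, which gave 5140 of 5904.

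All 4 libraries came from Saccharomyces cerevisiae BY4741 whose chromosomal SRP72 gene carries a TAP tag (srp72::SRP72-TAP-HIS3MX), grown in YPD to mid-log phase, collected by fast filtration and frozen. After lysis and the separation of membrane-bound from soluble material, SRP72-TAP was pulled down from the soluble fraction, and poly(A) RNA was broken to about 40 nt for sequencing. The groups were soluble and SRP72-bound mRNA of a lysate with CHX, and the same pair of a lysate with puromycin, with 1 library each. In the deposited table, mRNA columns for this strain either say puromycin or give no drug. The latter were read as CHX because the labels give mRNA of this strain from CHX and puromycin lysates only. The tag is on every library, no pulldown from an untagged strain was analysed here, and the drugs were in the lysate, so they acted on ribosomes and particles outside the cell.

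SRP is a complex of RNA and protein that meets signal sequences and transmembrane segments as they leave the ribosome and carries the ribosome to the SRP receptor and the translocon of the endoplasmic reticulum (ER). CHX stops elongation and leaves the nascent chain on the ribosome. Puromycin mimics an aminoacyl-tRNA, is joined to the end of the nascent chain and releases it, after which ribosomes can leave the message. Setting one lysate against the other asks how far SRP-bound messages depend on ribosomes that carry a nascent chain.

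The 4 libraries held 15.57 to 27.43 M counts, and the 10 largest ORFs took 11.8% to 14.5% of each. The authors' classes SS, TMD and SSTMD (a signal sequence, a transmembrane domain or both) are called the signal classes here, and 748 of their 879 ORFs passed the count minimum. The other members were 3257 cytonuclear ORFs, 530 mitochondrial, 49 tail-anchored and 556 of a class named Exception, which the table does not define. With 1 library per group there is no replicate check and no p-value. Intervals given for a change are 95% intervals from the 4 counts and cover counting error only, reaching a median of 0.17 to either side. The middle 95% of cytonuclear changes ran from -1.53 to 1.24, a spread far wider than counting error, and single changes inside that range were read with this in mind.

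After puromycin the make-up of SRP72-bound RNA lay closer to that of soluble RNA, without being alike. Signal-class ORFs held 61.87% of counts in the SRP72-bound library of the CHX lysate (Wilson 95% interval 61.847% to 61.886%) and 43.56% in that of the puromycin lysate (43.535% to 43.584%). In soluble RNA their share went the other way, from 8.841% to 12.04%. Cytonuclear ORFs held 17.51% of SRP72-bound counts in CHX and 37.46% in puromycin, against 76.06% and 72.05% of soluble counts. Signal-class messages thus held a larger share of the SRP72-bound than of the soluble library in both lysates.

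ORF by ORF, 1245 of the 5140 members (24.2%) were lower by over 2-fold after puromycin and 3.87% were higher by over 2-fold. Of the 748 signal-class members, 631 were lower and 2 were higher, and their median ratio was 4.48 in CHX and 1.69 in puromycin. The median change was -2.36 (quartiles -3.15 and -1.57), a 5.14-fold lower ratio, beside -0.16 over all members. Relative to cytonuclear messages, the median signal-class message was lower by 1.66 (log2) in SRP72-bound RNA of the puromycin lysate and higher by 0.60 in soluble RNA. As a share of each library's total counts, the same medians were -0.61 and 0.53. These directions are relative to cytonuclear messages, whose median SRP72-bound over soluble ratio in counts scaled to the library total was itself 0.336 in CHX and 0.724 in puromycin. Scaling by total counts therefore adds 1.11 to every change, so that any change between -1.11 and 0 given here turns positive. With that scaling the median change of all members is 0.94, and 658 ORFs are lower and 2413 higher (78.6% of calls are higher, against 13.8% here), while the medians of the 3 signal classes stay below 0 and below those of every other class.

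**Figure D1:**
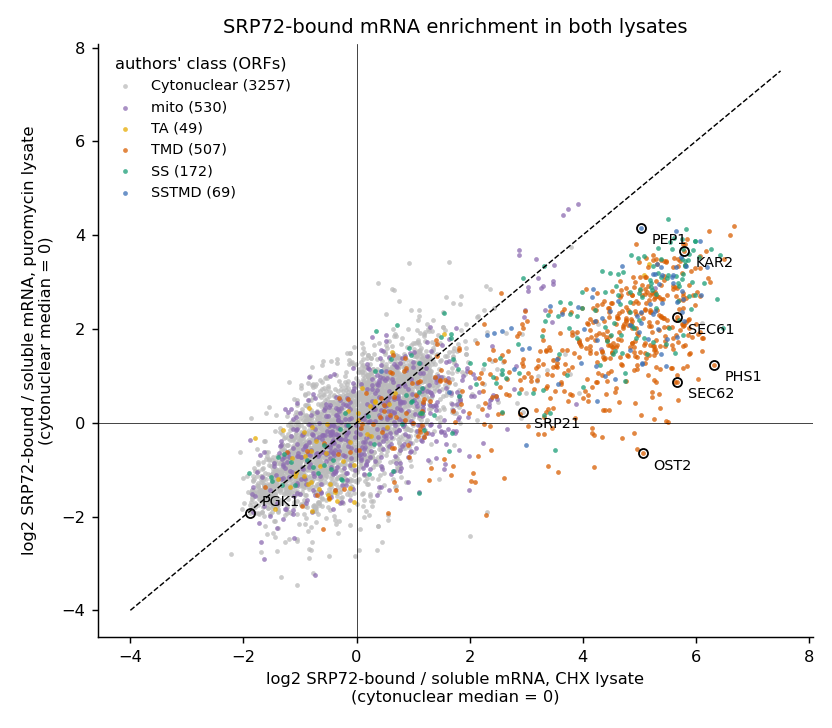
Each point is 1 ORF, with its log2 SRP72-bound over soluble mRNA ratio in the CHX lysate on the x axis and in the puromycin lysate on the y axis, both set to 0 at the cytonuclear median. The diagonal marks no change. Signal-class ORFs lie mostly below it (631 of 748 by over 2-fold), while cytonuclear ORFs lie around it. The 556 ORFs of the Exception class are not drawn.

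Among the signal classes, the SS class had the smallest decrease. Its 172 members had a median ratio of 4.11 in CHX and 1.88 in puromycin, with a median change of -1.81 and 125 members lower by over 2-fold. The 507 TMD members went from 4.46 to 1.56 (median change -2.53, 445 lower), and the 69 SSTMD members from 5.03 to 2.28 (median change -2.48, 61 lower). The quartiles overlapped, with -2.56 and -0.92 for SS against -3.29 and -1.83 for TMD. The 49 tail-anchored members, whose only membrane segment lies so close to the stop codon that the chain is finished before it leaves the ribosome, had a median ratio of -0.46 in CHX and -0.41 in puromycin. Their median change was -0.17, with 9 lower and 3 higher. Mitochondrial members had a median change of -0.30 (122 of 530 lower), and the Exception class -0.61 with a long lower tail (first quartile -2.30, 236 of 556 lower). Cytonuclear members had a median change of 0.02, with 247 of 3257 lower and 157 higher.

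Part of the enrichment remained after puromycin. In the CHX lysate 1423 members (27.7%) had a ratio above 2-fold, and in puromycin 1180 (23.0%) did. Of the 670 signal-class ORFs above 2-fold in CHX, 519 (77.5%) were above 2-fold in puromycin too, beside 939 of 1423 (66.0%) over all members. Of the same 670, 618 were lower by over 2-fold. Ratios above 16-fold became rare: 453 signal-class ORFs passed that mark in CHX and 7 in puromycin. At the other end, 89 signal-class ORFs lay below the cytonuclear median in puromycin. A cytonuclear ORF above 2-fold in CHX was above it in puromycin in 176 of 333 cases (52.9%).

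How much remained varied with the length of coding sequence between the first signal and the stop codon, the stretch over which a ribosome can carry an emerged signal. In puromycin the median ratio was higher in each longer bin: -0.65 at 50 up to 100 codons (39 ORFs), 0.47 at 100 up to 200 (111), 1.67 at 200 up to 400 (213), 2.17 at 400 up to 800 (305) and 2.43 at 800 and over (79). In CHX it went from 0.70 and 3.31 in the shortest of these bins to 4.91, and then to 4.71 and 4.54. The ratio in CHX was thus near its top from 200 codons on, while the ratio in puromycin was higher still at greater lengths. Spearman's rho between signal-to-stop length and the ratio was 0.20 in CHX and 0.578 in puromycin over 748 ORFs, a description across genes that share the same libraries.

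The change itself did not follow length in a single direction. Its median was -1.25 at 50 up to 100 codons, where the CHX ratio was small to begin with, -2.95 at 100 up to 200, -3.06 at 200 up to 400, -2.28 at 400 up to 800 and -1.84 at 800 and over. Both sides of the ratio differed over these bins. Relative to cytonuclear messages, the median difference, puromycin minus CHX, was -1.30, -2.82, -2.20, -1.52 and -1.11 in SRP72-bound RNA. In soluble RNA it was -0.02, 0.25, 0.73, 0.74 and 0.71. Of ORFs above 2-fold in CHX, the share still above 2-fold in puromycin was 1 of 17 (5.88%) at 50 up to 100 codons, 29 of 90 (32.2%) at 100 up to 200, 161 of 193 (83.4%) at 200 up to 400, 254 of 294 (86.4%) at 400 up to 800 and 73 of 75 (97.3%) at 800 and over. Over all members that share was 66.0%. The single ORF under 50 codons, MIN3, had a ratio of 1.80 in CHX and 1.14 in puromycin. In counts, ORFs of 100 up to 200 codons held 6.47% of the SRP72-bound library in CHX and 1.5% in puromycin, and those of 800 codons and over held 10.1% and 11.5%.

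**Figure D2:**
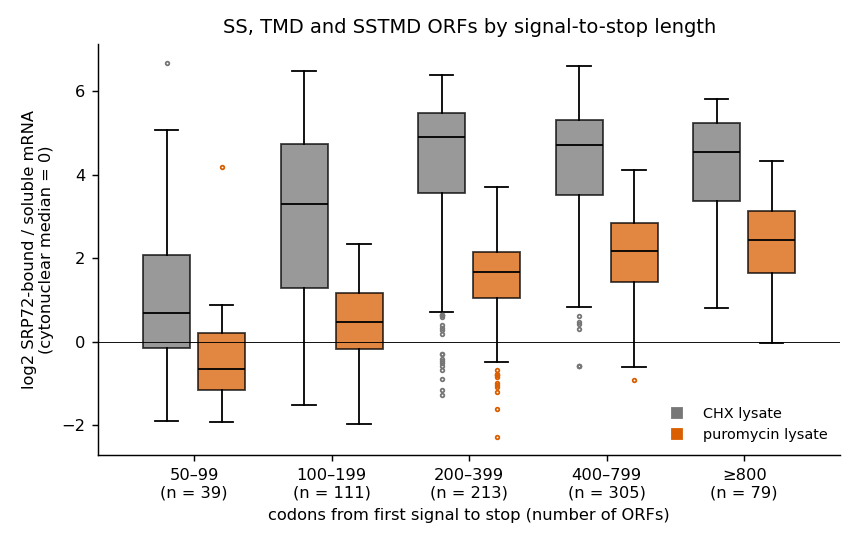
Log2 SRP72-bound over soluble mRNA ratio (y axis) of signal-class ORFs by codons from first signal to stop codon (x axis), in the CHX and the puromycin lysate. Boxes are quartiles with the median, whiskers reach 1.5 times the interquartile range, and the 1 ORF under 50 codons is not drawn. The puromycin medians go up with length from -0.65 to 2.43, while the CHX medians are between 4.54 and 4.91 from 200 codons on.

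Ribosome footprints from other libraries, with no drug before harvest, were used to group ORFs by how far SRP72-bound polysomes held them. Among 4964 members measured there, the median change was 0.14 where the footprint ratio was below 0 (1917 ORFs), -0.05 from 0 up to 1 (1628), -0.44 from 1 up to 3 (566), -1.74 from 3 up to 5 (153) and -2.67 at 5 and over (700, of which 683 were lower by over 2-fold). The median CHX ratio also went up over these bins, from -0.68 to 0.31, 1.03, 2.51 and 4.96. Since that ratio is subtracted in the change, the order of the bins partly restates how much enrichment there was to lose. The footprint ratio is the mean of 2 replicates, whose difference had an SD of 0.270. Restricted to signal-class ORFs with a footprint ratio of 5 or more, the change was smaller in each longer bin: -3.98 at 100 up to 200 codons (56 ORFs), -3.25 at 200 up to 400 (163), -2.41 at 400 up to 800 (240) and -2.0 at 800 and over (65). The 8 such ORFs of 50 up to 100 codons had a median of -4.05. Spearman's rho between length and change was 0.608 over these 532 ORFs.

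Within the TMD class the median change was -1.65 at 50 up to 100 codons (33 ORFs), where CHX ratios were low. From 100 codons on it was smaller in each longer bin: -3.23 at 100 up to 200 (94), -3.15 at 200 up to 400 (134), -2.38 at 400 up to 800 (197) and -2.0 at 800 and over (49). For SSTMD it was -3.40 (23), -2.19 (35) and -1.48 (11) in the 3 bins from 200 codons on, and for SS it was -2.22 (56), -1.91 (73) and -1.0 (19). At matched length the SS class therefore had the smaller change in each of these bins. Its median CHX ratio was also lower at 200 up to 400 codons (4.11, against 4.97 for TMD and 5.06 for SSTMD). The same held at 800 and over (3.31, against 4.61 and 4.70), but at 400 up to 800 it lay between them (4.83, against 4.52 and 5.02). By whole ORF length, the signal-class median change was -2.32 under 200 codons (82 ORFs), -3.17 at 200 up to 400 (226), -2.34 at 400 up to 600 (217), -2.14 at 600 up to 1000 (164) and -1.65 at 1000 and over (59). Cytonuclear messages showed no change of this size with length: their median change was 0.14 under 200 codons (500 ORFs) and -0.09 at 1000 and over (322). Their ratio itself was higher for longer ORFs in both lysates, from -0.88 to 0.70 in CHX and from -0.81 to 0.58 in puromycin between the same bins.

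Short membrane proteins stood at the lower end of the table. OST2 encodes a small subunit of the oligosaccharyltransferase (130 codons, 84 from signal to stop, chromosome XV, 516449 to 516841 in the R64 assembly). Its level was 62.2 CPM (counts per M counts of the library) in soluble and 698 CPM in SRP72-bound RNA of the CHX lysate, and 66.5 and 30.6 CPM in the puromycin lysate. Soluble RNA barely differed, and the SRP72-bound library went from the highest of the 4 levels to the lowest. The change was -5.72 (95% interval -5.88 to -5.56), a 52.6-fold lower ratio and the largest decrease among all members. PKR1, an assembly factor of the vacuolar ATPase (122 codons, 102 from signal to stop), had 78.7 and 1366 CPM in CHX and 74.6 and 75 CPM in puromycin, so that soluble and SRP72-bound levels were nearly equal (change -5.22).

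The 10 largest decreases among members with 200 or more counts in every library were OST2, APQ12, GOT1, VPS55, TVP15, PKR1, YOP1, EMA19, NCE102 and PHS1, from -5.72 to -5.08. All of them are ORFs of 122 to 217 codons. Among them GOT1 and VPS55 act in Golgi and endosomal traffic, YOP1 shapes ER tubules, and NCE102 is an organizer of plasma membrane eisosomes. Of these 10, 9 are in the TMD class and TVP15 is in the Exception class. PHS1, the dehydratase of very long chain fatty acid elongation (206 codons from signal to stop), had 50.8 and 1366 CPM in CHX and 131 and 224 CPM in puromycin, a change of -5.08 with part of the enrichment left (ratio 1.24). NCE102 went from 8108 to 850 CPM in SRP72-bound RNA while its soluble level went from 369 to 617 CPM.

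SEC62, a subunit of the translocon complex used after translation, differs from these in that its first signal lies late in the protein (codon 149 of 274, which leaves 125 to the stop). Its levels were 189 and 3239 CPM in CHX and 193 and 257 CPM in puromycin, and its change was -4.80 (-4.87 to -4.72). By position of the first signal, a division chosen after the values were seen, the median change was -2.36 for signals before codon 26 (420 ORFs), -2.59 at 26 to 100 (211), -2.36 after 100 and up to 200 (55) and -1.55 after 200 (62). The last bin began from a lower CHX ratio of 2.59.

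Long secretory messages kept more of their enrichment. PEP1, the sorting receptor for vacuolar hydrolases (1579 codons, 1576 from signal to stop), had 155 and 1706 CPM in CHX and 221 and 2856 CPM in puromycin. Both of its levels were higher in the puromycin lysate, and its ratio above the cytonuclear median went from 5.03 to 4.16. That change of -0.87 (-0.93 to -0.81) is inside the middle 95% of cytonuclear changes and becomes 0.23 under total-count scaling. SPF1, an ATPase of the ER membrane of 1215 codons, had 245 and 4512 CPM in CHX and 546 and 5527 CPM in puromycin (change -1.97). KAR2, the ER Hsp70 that the table places in the TMD class, had 413 and 7713 CPM in CHX and 812 and 7444 CPM in puromycin, a change of -2.14 (-2.17 to -2.10). Its SRP72-bound level in CPM was nearly the same in both lysates, and its soluble level was higher in puromycin. PMA1, the plasma membrane proton pump, had 3095 and 36006 CPM and then 6105 and 50066 CPM (change -1.61). In each of these 4 genes the SRP72-bound level stayed far above the soluble one.

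**Figure D3:**
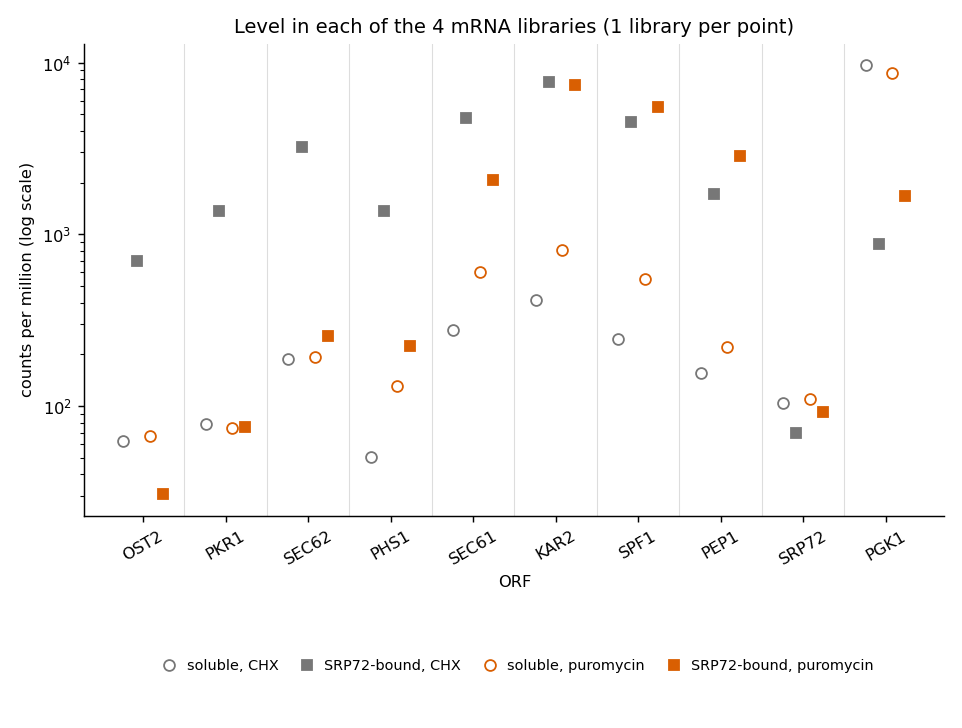
Levels in CPM (log axis) of 10 genes in the 4 libraries, 1 library per point. For OST2, PKR1 and SEC62 the SRP72-bound level in puromycin is near or below the soluble levels, while for KAR2, SPF1 and PEP1 it stays well above them. PGK1 and SRP72 are drawn for comparison, and levels of different genes also depend on their length.

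The 5 highest signal-class ratios in puromycin, among ORFs with 200 or more counts throughout, belonged to HPF1 (4.34), YLR342W-A (4.19), PEP1 (4.16), TOS1 (4.12) and PPN1 (4.08). HPF1 and TOS1 are cell wall proteins, and PPN1 is a vacuolar polyphosphatase. YLR342W-A departs from the pattern of length, with only 57 codons, a ratio of 6.68 in CHX and a change of -2.50. It starts 182 bases downstream of FKS1, the large glucan synthase gene, whose ratio went from 4.92 to 3.34, and whether its counts include FKS1 transcript was not tested. The 5 lowest were YPR170W-B (-1.92), MTC7 (-1.44), YCR043C (-1.43), the small oligosaccharyltransferase subunit OST5 (-1.41) and HOR7 (-1.33). The CHX ratios of these 5 lay between -1.09 and 0.70, so that none had been above 2-fold there.

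A wider look at both ends gave 95 signal-class ORFs above 16-fold in CHX and above 8-fold in puromycin, with a median of 558 codons from signal to stop. Of these, 38 were SS, 42 TMD and 15 SSTMD. Another 45 were above 16-fold in CHX and under 2-fold in puromycin, with a median of 188 codons from signal to stop, and 41 of them were TMD. In 9 of the 45 the puromycin ratio was at or below the cytonuclear median: OST2, APQ12, EMA19, DFP4, SFT2, ERG28, YIP1, VMA3 and FEX2. All 9 are TMD ORFs, the class of 313 of the 453 signal-class ORFs above 16-fold in CHX. The rest of the 453 were 87 SS and 53 SSTMD ORFs. These thresholds were chosen after the values were seen.

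The members that build the translocation machinery showed the whole range. Of 20 genes of the translocon, signal peptidase and oligosaccharyltransferase, 17 were lower by over 2-fold and none was higher, with a median ratio of 5.33 in CHX and 1.53 in puromycin. The small subunits OST2, SPC1 (-4.62) and SEC66 (-4.59) stood beside SEC62 at the lower end. SEC61, the channel itself, had 276 and 4737 CPM in CHX and 602 and 2064 CPM in puromycin, so its change of -3.43 (-3.48 to -3.39) came from both a lower SRP72-bound and a higher soluble level. The larger oligosaccharyltransferase subunits STT3 (-2.64) and OST1 (-2.19) kept ratios of 3.19 and 3.88 in puromycin. The small subunit OST4, the tail-anchored SBH2 and the peripheral SEC72 had ratios below 0 in both lysates and changes of -0.40, -0.21 and -0.03. SSS1, the tail-anchored partner of SEC61, had a change of -0.06, and SEC63, the Hsp40 of the complex, one of -3.01.

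ER lumen folding factors are mostly long soluble proteins with a signal sequence, and all 21 were lower by over 2-fold, yet 20 stayed above 2-fold in puromycin. Their changes lay between -3.29 (MPD2, a disulfide isomerase) and -1.64 (MNL1, a mannosidase of ER-associated degradation), around a median of -2.46. PDI1, the main disulfide isomerase, went from a ratio of 5.68 to 2.60. The short prolyl isomerase FPR2, with 130 codons from signal to stop, was the 1 that ended below 2-fold (0.23). Of 28 Golgi and ER glycosyltransferases, all were lower by over 2-fold (median -2.58, from VRG4 at -3.88 to PMT6 at -1.78), and 27 stayed above 2-fold.

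ER membrane lipid enzymes had a larger decrease, with a median ratio of 5.66 in CHX, 2.25 in puromycin and a median change of -3.24. Of 28, 27 were lower by over 2-fold. After PHS1 came its partners in fatty acid elongation IFA38 (-4.33) and ELO1 (-3.97) and the ceramide synthase LAG1 (-4.15), while the sterol enzymes ran from ERG2 (-3.87) and ERG25 (-3.42) to ERG11 (-2.79) and HMG1 (-2.48). ERG1, squalene epoxidase, was the 1 that was not lower, with a ratio of -1.11 in both lysates (change 0.00). The 14 p24 proteins and cargo receptors had the lowest list median, -3.69, and all 14 were lower by over 2-fold. ERV14, a cargo receptor of 138 codons, went from 4.2 to -0.26, and the p24 protein ERP2 from 5.48 to 1.21, while the longer EMP46 went from 5.64 to 3.65.

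Of 10 membrane subunits and assembly factors of the vacuolar ATPase, 9 were above 2-fold in CHX and 9 were lower by over 2-fold (median -3.44). In puromycin 1, the large subunit VPH1 (ratio 1.39), stayed above 2-fold. The proteolipids VMA3 (4.16 to -0.23), VMA11 (5.22 to 0.56) and VMA16 (5.64 to 0.87) lost nearly all of their enrichment. The peripheral subunit VMA6 had a ratio of -0.37 in CHX and a change of -0.27. Plasma membrane transporters, most of them long, had a median change of -2.34, with 30 of 31 lower by over 2-fold and 29 above 2-fold in puromycin. Their changes ran from the copper transporter CTR1 (-3.33) to the weak-acid efflux pump PDR12 (-0.64, ratio 2.17 in puromycin). HXT5, the remaining list entry, was under the count minimum. MRH1 and YRO2, related membrane proteins of the cell surface, had changes of -3.08 and -3.28, and PER33, a membrane protein of the ER, one of -4.14. Of 9 vacuolar hydrolases 8 were lower by over 2-fold (median -2.28), from PRC1, carboxypeptidase Y (-2.92), to the protease PRB1, whose ratio was only 0.30 in CHX and -0.45 in puromycin.

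Cell wall proteins were a mixed list: 20 of 28 were lower by over 2-fold and 1 was higher, with a median change of -1.64. The enzymes BGL2 (-3.18, a glucanase) and GAS1 (-2.11, a glucanosyltransferase) had CHX ratios of 5.88 and 5.99. The mannoproteins CCW12 (-1.52 and -1.16) and CWP2 (-1.32 and -1.33) had ratios below 0 in both lysates. So did the heat shock glycoprotein HSP150 (-0.58 and -0.91), and none of them passed 2-fold either way. The wall proteins CWP1, TIP1, PIR1 and CIS3 were alike in both respects. Other wall proteins of the list were lower by over 2-fold: CCW14 (1.69 to -0.22), SED1 (1.37 to 0.17) and TIR1 (0.64 to -1.03). PIR3, a wall protein with internal repeats, was the 1 that was higher (0.34 to 1.95). It rested on low levels of 11.3 and 4.81 CPM in CHX and 10.8 and 30.1 CPM in puromycin. Of 51 SS-class ORFs annotated as GPI anchored, 31 were lower by over 2-fold and 1 was higher (median -1.20), against 94 and 1 of the 121 other SS ORFs (median -2.22). The GPI group also began lower in CHX, at a median ratio of 3.34 against 4.48.

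**Figure D4:**
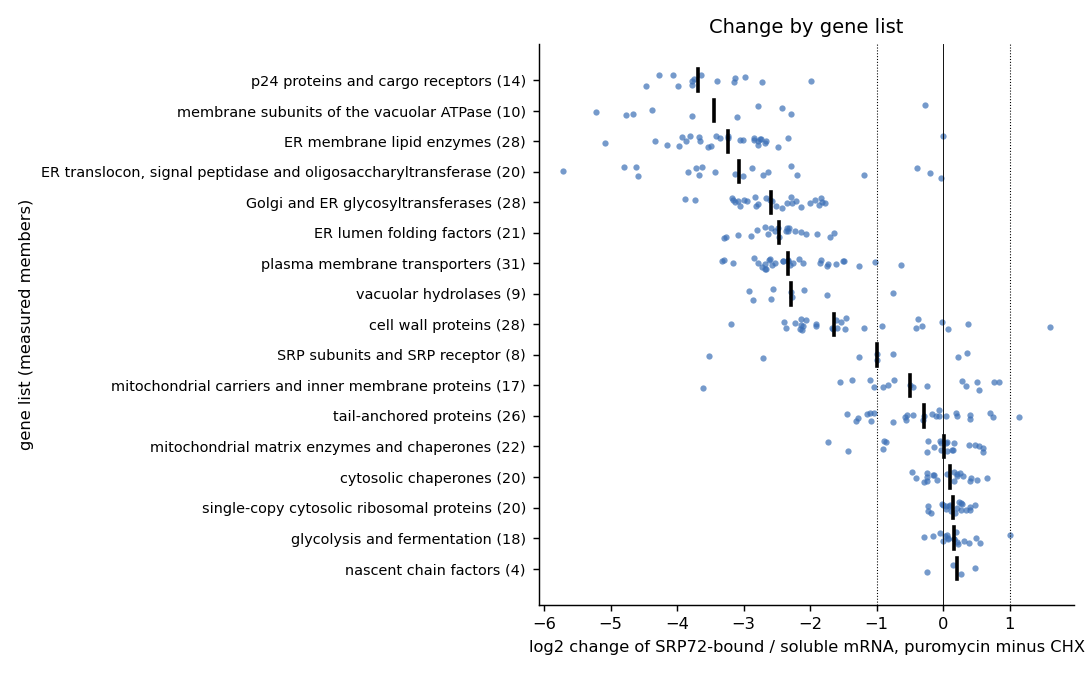
Change of the log2 SRP72-bound over soluble mRNA ratio, puromycin minus CHX, for the measured members of 17 gene lists. Dots are genes, black bars list medians, and dotted lines mark 2-fold in either direction. Secretory lists lie between a median of -3.69 (p24 proteins and cargo receptors) and -1.64 (cell wall proteins), and ribosomal proteins, glycolysis and cytosolic chaperones lie around 0, which is the cytonuclear median and not zero under total-count scaling.

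Several messages of SRP itself were lower as well, although its subunits are cytonuclear in the table. SRP72, the subunit with the tag, had 105 and 69.6 CPM in CHX and 109 and 92.5 CPM in puromycin. Its ratio went from 0.99 to 0.23 (change -0.76, -0.89 to -0.63), inside the middle 95% of cytonuclear changes. Whether this message was held through its own tagged product was not tested. SRP54, the signal-binding subunit, went from 1.00 to 0.00, and SRP21 from 2.94 to 0.23. SRP21 had 90.9 and 234 CPM in CHX and 89.2 and 75.5 CPM in puromycin, and its change of -2.72 (-2.84 to -2.59) was the largest among the subunits. SEC65 had a change of -1.27, and SRP14 and SRP68 had changes of 0.22 and 0.35. Of the receptor, the membrane-anchored beta subunit went from 5.70 to 2.18 and the peripheral alpha subunit, a GTPase, from 1.29 to 0.29. Over the 8 genes, 5 were lower by over 2-fold, with a median change of -1.0. SRP54 and the alpha subunit sit at that threshold, with intervals of -1.08 to -0.92 and -1.10 to -0.90, and median-of-ratios scaling puts them at -0.87 and -0.88, short of it. The list median and both of these changes become 0.11 when libraries are scaled by total counts, which puts SEC65 at -0.16.

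Messages for cytosolic proteins had low ratios in both lysates, with changes near 0. Median ratios in CHX and puromycin were -1.59 and -1.45 for ribosomal proteins, -1.65 and -1.54 for glycolysis and -0.67 and -0.77 for cytosolic chaperones. None of 20 ribosomal proteins and none of 20 cytosolic chaperones passed 2-fold in either direction, with median changes of 0.14 and 0.10 relative to the cytonuclear median. The ribosomal proteins lay between ASC1 (-0.23) and RPS13 (0.48), with RPL3 at 0.34, and the chaperones between TCP1 (-0.47) and YDJ1 (0.65). Of 18 glycolytic and fermentation genes, 1, the phosphofructokinase subunit PFK1 (1.01), was higher by over 2-fold and none was lower. PGK1, phosphoglycerate kinase, had 9627 and 880 CPM in CHX and 8751 and 1675 CPM in puromycin, a change of -0.04 once set against the cytonuclear median. HAC1, the transcription factor of the unfolded protein response, had ratios of 0.50 and 0.95. Nascent chain factors (EGD1, EGD2, SSZ1 and ZUO1) lay between -0.24 and 0.47, with BTT1 under the count minimum.

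Of 26 listed tail-anchored genes, 7 were lower by over 2-fold (26.9%) and 1 was higher (3.85%), shares near the 24.2% and 3.87% of all members. The SNAREs TLG2 (-1.45, TMD in the table), SNC2 (-1.32) and SED5 (-1.29) were among the lower, and FIS1, a mitochondrial fission factor, was higher (1.14) on 6.05 and 25.6 CPM in the SRP72-bound libraries. Only TLG2 of this list had a ratio above 2-fold in CHX, and none did in puromycin. SCS2, the ER receptor of contact sites, had a change of 0.40. PMP1 and PMP2, proteolipids of the proton pump with 40 and 43 codons, were named after their values were seen, and as paralogs they may share reads. The table classes them as tail-anchored, yet their ratios were 5.17 and 5.08 in CHX and 3.39 and 3.16 in puromycin.

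Of the 530 mitochondrial members, 23.0% were lower by over 2-fold, close to the 24.2% of all members. Among 22 matrix enzymes and chaperones, 2 were lower by over 2-fold, LEU4 (-1.74) and LEU9 (-1.43), paralogs whose shared reads make the split between them uncertain. Among 17 carriers and inner membrane proteins 5 were lower (29.4%, against 24.2% of all members), and SDH3, a subunit of succinate dehydrogenase, went from 1.79 to -1.82. Its SRP72-bound level was 178 CPM in CHX and 30.4 CPM in puromycin while its soluble level was 154 and 149 CPM. The matrix Hsp70 SSC1 had a change of 0.16. PET9, the main ADP/ATP carrier, went from 0.97 to 0.23, TIM22 had the highest change of the list (0.84), and CRC1 was under the count minimum. By length, the mitochondrial class had median changes of 0.18 under 200 codons (112 ORFs), -0.20 at 200 up to 400 (202), -0.65 at 400 up to 600 (135), -0.75 at 600 up to 1000 (71) and -0.22 at 1000 and over (10).

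Increases were smaller than decreases and lay mostly outside the signal classes: 157 of the ORFs higher by over 2-fold were cytonuclear, 23 mitochondrial, 14 Exception, 3 tail-anchored and 2 SS. These are 4.82%, 4.34%, 2.52%, 6.12% and 1.16% of the members of each class, beside 3.87% of all members and 0.267% of the signal classes. The 10 largest increases among well-counted members, from 1.81 to 1.43, were UTR4, MET31, LOT5, MKK2, OPY1, LSB5, YFH1, MRPL37, ZIP1 and REE1. UTR4, an enzyme of methionine salvage, had 85.6 and 9.49 CPM in CHX and 60.4 and 50.7 CPM in puromycin, so its ratio went from -1.60 to 0.21 (change 1.81, 1.58 to 2.05). MKK2, a kinase of the cell wall integrity pathway, had 12.9 and 73.2 CPM in the SRP72-bound libraries (change 1.60). Of these 10, ZIP1 was the one with the highest ratio in puromycin, at 2.41. The cytonuclear ORFs with the highest CHX ratios were YDR003W-A (6.12 to 2.12), LIH1 (4.36 to 1.46), RPR2 (4.27 to 2.11), DFP2 (3.93 to 0.64) and YHR033W (3.87 to 1.89), all lower after puromycin. YDR003W-A lies 27 bases downstream of RCR2, a TMD ORF whose ratio went from 5.36 to 1.15, and whether it shares RCR2 transcript was not tested.

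The authors' annotations of how ORFs meet SRP, which come from footprints or outside predictions, went with modest differences in the change over all lengths. Signal-class ORFs predicted as SRP dependent had a median change of -2.81 (275 ORFs, 261 lower by over 2-fold), and those predicted as independent -2.15 (218 ORFs, 179 lower). At matched length the medians were -2.48 and -0.18 at 50 up to 100 codons from signal to stop (17 and 7 ORFs). They were -3.58 and -2.60 at 100 up to 200 (50 and 13), and -3.33 and -2.74 at 200 up to 400. In the longer bins they were -2.58 and -2.06 at 400 up to 800, and -2.08 and -1.40 at 800 and over. The median CHX ratios in these bins differed too: 2.15 and -0.77, 4.47 and 2.57, 5.27 and 4.67, 4.90 and 4.85, and 4.64 and 4.53. ORFs marked for SRP prerecruitment, a call made on monosome and polysome footprints before the signal is exposed, went from a median ratio of 4.95 to 2.04 (482 ORFs), and those marked as not prerecruited from 3.31 to 0.15 (83 ORFs). Their median changes were -2.65 and -2.29. At matched length the order was mixed. The median ratio in puromycin was -1.19 for prerecruited and -0.72 for other ORFs at 50 up to 100 codons (8 and 19 ORFs), 0.74 and 0.11 at 100 up to 200 (47 and 33), 1.76 and 1.10 at 200 up to 400 (158 and 16), and 2.38 and 2.48 at 400 up to 800 (217 and 14). The median changes in these bins were -1.57 and -1.65, -3.39 and -3.44, -3.18 and -1.5, and -2.41 and -2.05. ORFs marked with pronounced direct SRP binding had a median change of -2.81 (215 ORFs) against -2.48 for those without (350 ORFs). For this annotation the change was not compared at matched length.

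Membrane-bound mRNA of the same lysates was given the same measure and shares the soluble libraries, so the values are set side by side only. The membrane ratio was lower by over 2-fold in 920 of 5125 members (18.0%) and higher in 122 (2.38%). The signal-class median change was -1.5 at the membrane beside -2.36 for SRP72-bound RNA, and it was -0.10 and -1.25 at 50 up to 100 codons from signal to stop, -0.88 and -2.95 at 100 up to 200, -1.81 and -3.06 at 200 up to 400, -1.54 and -2.28 at 400 up to 800 and -1.49 and -1.84 at 800 and over. In CHX the median membrane ratio was only 0.15 at 50 up to 100 codons and 1.04 at 100 up to 200, against 2.56, 2.64 and 2.73 in the longer bins. Short messages thus had little membrane enrichment to lose. The membrane change of OST2 was -0.17 and that of SEC62 was -0.56, far smaller than their SRP72-bound changes of -5.72 and -4.80. Their membrane ratios in CHX were only 0.40 and 0.92, beside SRP72-bound ratios of 5.06 and 5.67. For PEP1 the membrane change was -0.87, the same as its SRP72-bound change, and for SPF1 the changes were -1.94 and -1.97.

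**Figure D5:**
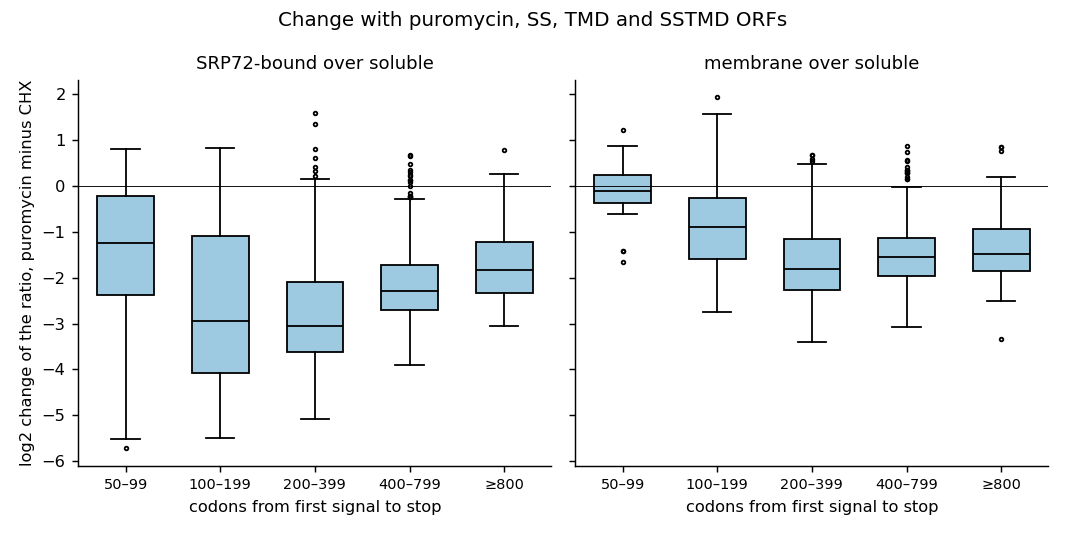
Change of the log2 ratio to soluble mRNA, puromycin minus CHX, for SRP72-bound and for membrane-bound mRNA of signal-class ORFs by codons from first signal to stop codon. Boxes are quartiles with the median, and whiskers reach 1.5 times the interquartile range. The medians lie furthest apart at 100 up to 200 codons (-2.95 and -0.88) and closest at 800 and over (-1.84 and -1.49). Both changes use the same soluble libraries. Membrane ratios in CHX were low to begin with at 50 up to 100 and 100 up to 200 codons (medians 0.15 and 1.04).

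Of the 764 ORFs that were not members, 477 had no count in at least 1 of the 4 libraries, and 131 belong to the signal classes. Members whose lowest count was 50 to 59 numbered 63, with a median change of -0.53, and the 50 ORFs with a lowest count of 40 to 49 just outside had a median of -0.99. Of the 764, 321 had their lowest count in the SRP72-bound library of the puromycin lysate, so counts over members can leave out messages that were far lower there.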

How the data were processed

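Poly(A) RNA of BY4741 SRP72-TAP fractions was analysed from the table of raw counts per ORF that the authors deposited, 1 library per fraction and drug. Per the submitters' processing notes, CASAVA, cutadapt 1.3, Bowtie and TopHat were used with the sacCer3 genome. The treatment of multiply mapped reads and of strand is not given in the sources here, so near-identical and overlapping genes are uncertain. Class, ORF length and signal positions in codons, and the log2 enrichments of DESeq2-scaled reads, are as deposited by the authors, per the file headers. The 14 other count columns are not used here.

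Members had 50 or more counts in each of the 4 libraries. Each log2 ratio of raw counts was centred on the median of the cytonuclear class. The authors' deposited table gave changes that differed from these by a median of -0.0054 (SD 2.89e-05, 4880 ORFs). Membrane RNA of both lysates and 2 replicates of SRP72-bound and soluble polysome footprints, with 10 or more counts, were treated the same way. No test was run. An ORF was called lower or higher past 2-fold. The calculation was tested on simulated data. Python 3.11.15, numpy 2.4.6, pandas 2.3.3, scipy 1.17.1 and matplotlib 3.10.9 were used, and 5138 of 5140 members matched RefSeq R64 locus tags.

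Genes named are the 10 with the largest decrease, the 10 with the largest increase, and the 5 signal-class ORFs with the highest and the 5 with the lowest puromycin ratio, all among members with 200 or more counts throughout. The others, with no such minimum, are 30 fixed genes, the lowest and highest members of each of 17 lists, and the 5 cytonuclear ORFs with the highest CHX ratio. Other list members and neighbours were named after their values were seen. The members, lists and bins were chosen with earlier results of these data known.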

Additional observations from a re-analysis of the deposited data

How the results depend on the processing

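With 1 mRNA library per group, the changes have no replicate check, and counting intervals do not cover differences between lysates or pulldowns. Differences between classes or length bins do not depend on scaling, but the zero point does. Scaled by total counts, 658 ORFs were lower and 2413 higher by over 2-fold, and median changes were -0.70 for SS, -1.42 for TMD, -1.37 for SSTMD, 0.94 for tail-anchored, 0.81 for mitochondrial, 0.49 for Exception and 1.13 for cytonuclear ORFs, since the median of all ORFs moved by 1.11. Among results past 2-fold, the SRP and receptor list (0.11), SRP54 (0.11), the alpha subunit of the receptor (0.11) and MTC7 (0.042) turned positive under that scaling. Every change between -1.11 and 0 did so too, such as SRP72 (0.35), PEP1 (0.23), PRB1 (0.36), PDR12 (0.47), PET9 (0.37), HOR7 (0.86) and the mitochondrial carrier list (0.61). Median-of-ratios scaling moved the median of all ORFs by 0.126 and gave -2.40 for TMD, -0.17 for mitochondrial and 0.15 for cytonuclear ORFs. A minimum of 200 counts left 4290 members, 84 of them higher by over 2-fold, with a cytonuclear median of 0.051. The difference between signal-class and cytonuclear ORFs stayed between -2.47 and -2.38, that between ORFs of 800 codons and over and of 200 up to 400 codons from signal to stop between 1.21 and 1.27, and the number of lists with a median lower by over 2-fold between 8 and 10. These ranges cover both other scalings, a minimum of 10 or 200 counts, 5 added to every count, and the removal of ORFs that overlap a neighbour, which was chosen after seeing the data. Between footprint ratios of 5 and over and below 0 the change differed by -2.80 without replicate 1 and -2.80 without replicate 2 of the footprints. No paired analysis was possible because each mRNA group has 1 library and the results come from no test.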

Other observations

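Messages of the mitochondrial genome, which are made and read inside mitochondria, had a high SRP72-bound ratio in both lysates. They were grouped after their values were seen. The libraries were made from poly(A) RNA and no pulldown from an untagged strain was analysed. Whether these ratios reflect binding to SRP was not tested. The median ratio of 19 ORFs of the mitochondrial genome was 3.21 in CHX and 2.92 in puromycin, and all 19 were above 2-fold in both lysates. Their median change was -0.13, with 1 lower by over 2-fold, beside -0.30 for 511 nuclear ORFs of the mitochondrial class. COX1, a subunit of cytochrome oxidase, had ratios of 3.29 and 2.92, and COX3 had 3.92 and 4.67. COB, cytochrome b, had ratios of 3.18 and 3.49, and ATP6, a subunit of the ATP synthase, had 2.88 and 3.68. The small proteolipid OLI1 had 2.40 and 1.63. Several of these ORFs lie in introns of COX1 and COB and share sequence with them, so their counts are not independent. In membrane RNA of the same lysates 15 of the 19 were lower by over 2-fold, with a median change of -1.40.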
